A study of Danio rerio with 31 samples.

Results

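The enzymes that break down glucose to pyruvate and lactate, rebuild it from pyruvate, feed pyruvate into the mitochondria and turn the citrate cycle were followed in whole zebrafish. A list of 54 genes was taken by symbol, and a probe was assigned to a gene through its RefSeq accession. Of the 54 genes 48 had a matched probe, and the other 6 (pfkla, pfklb, pfkpa, pgam2, pck1 and pcxb) are only named. All 48 were detected in the time course, through 66 of 35412 detected probes, and each read probe lay well above background on all 24 arrays. At 48 and 50 hpf (hours post-fertilization) 47 were detected, and aldoca lay well above background on 0 of 7 arrays.

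The series holds 31 one-colour arrays of pooled whole larvae of the WT AB strain. In the time course 12 arrays sampled larvae kept under light-dark cycles (LD) and 12 sampled larvae of the same upbringing that stayed in constant darkness (DD) from before lights-on at 5 dpf (days post-fertilization). Sampling ran every 4 h from 0 to 44 h, where CT0 (circadian time 0) is lights-on, with 1 array per condition and time point. The other 7 arrays are 3 of mitfa morphants (mitfa_MO), 2 of larvae given a standard control morpholino (control_MO) and 2 of uninjected WT larvae. A morpholino is an antisense oligonucleotide injected into the early embryo, and the one for mitfa was designed against the start codon of this melanocyte transcription factor. RNA of whole larvae mixes all tissues, so that fewer cells of a type and less RNA per cell cannot be told apart. Nothing in the labels ties arrays to separate clutches, and the p-values measure only the spread between these arrays, which may be technical.

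Glycolysis runs in the cytosol of every cell and is most prominent in muscle, brain and retina, whereas gluconeogenesis is a task of the liver. The pathways share most of their enzymes, and direction is set at a few one-way steps, namely the hexokinases against glucose-6-phosphatase, phosphofructokinase against fructose-bisphosphatase, and pyruvate kinase against phosphoenolpyruvate carboxykinase. The pyruvate dehydrogenase complex commits pyruvate to the citrate cycle and is switched off when pyruvate dehydrogenase kinase phosphorylates it. Zebrafish carry duplicated copies of many of these genes, written with a final a or b.

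Between 75.2% and 92.0% of the probes lay well above background on a time-course array, the least on the DD array at 24 h, and between 71.3% and 75.4% on an array at 48 or 50 hpf. The median correlation of an array with the others of its set was 0.979 to 0.988. The LD arrays lay on other slides than the DD arrays. Values below are log2 intensities after quantile normalization within each set, and a difference of 1 is a doubling.

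A daily rhythm was called in 12 of the 48 enzymes, in every pathway group. A gene was counted as oscillating when the 24-h period dominated its course and Fisher's g test, which asks whether one period holds more of the variance than noise would give, was below 0.5 in LD and in DD. By this permissive rule 12.7% of all detected probes oscillated, against 12 of 48 members (3 of 13 in upper glycolysis, 1 of 14 in lower glycolysis and lactate formation, 2 of 5 in gluconeogenesis, 1 of 4 around pyruvate dehydrogenase and 5 of 12 in the citrate cycle). Here and below, shares of all probes cover every detected probe, with or without a matched gene, whereas a member is read from its brightest probe. The shares were not matched for signal. At a g test below 0.15 in a single condition, 11 members oscillated in LD and 7 in DD, where 16.8% and 10% of all probes did. With limma's moderated F test at an adjusted p of 5% in both conditions, a call that 1.58% of probes received, hk2 was the only member left, with 6 members in LD and 2 in DD, where 5.93% and 2.02% of probes passed. A slide held 4 successive time points of 1 condition, and neither rhythm test took slide into account. The fits of amplitude and phase below did not either, so that shifts between slides may enter them.

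**Figure D1:**
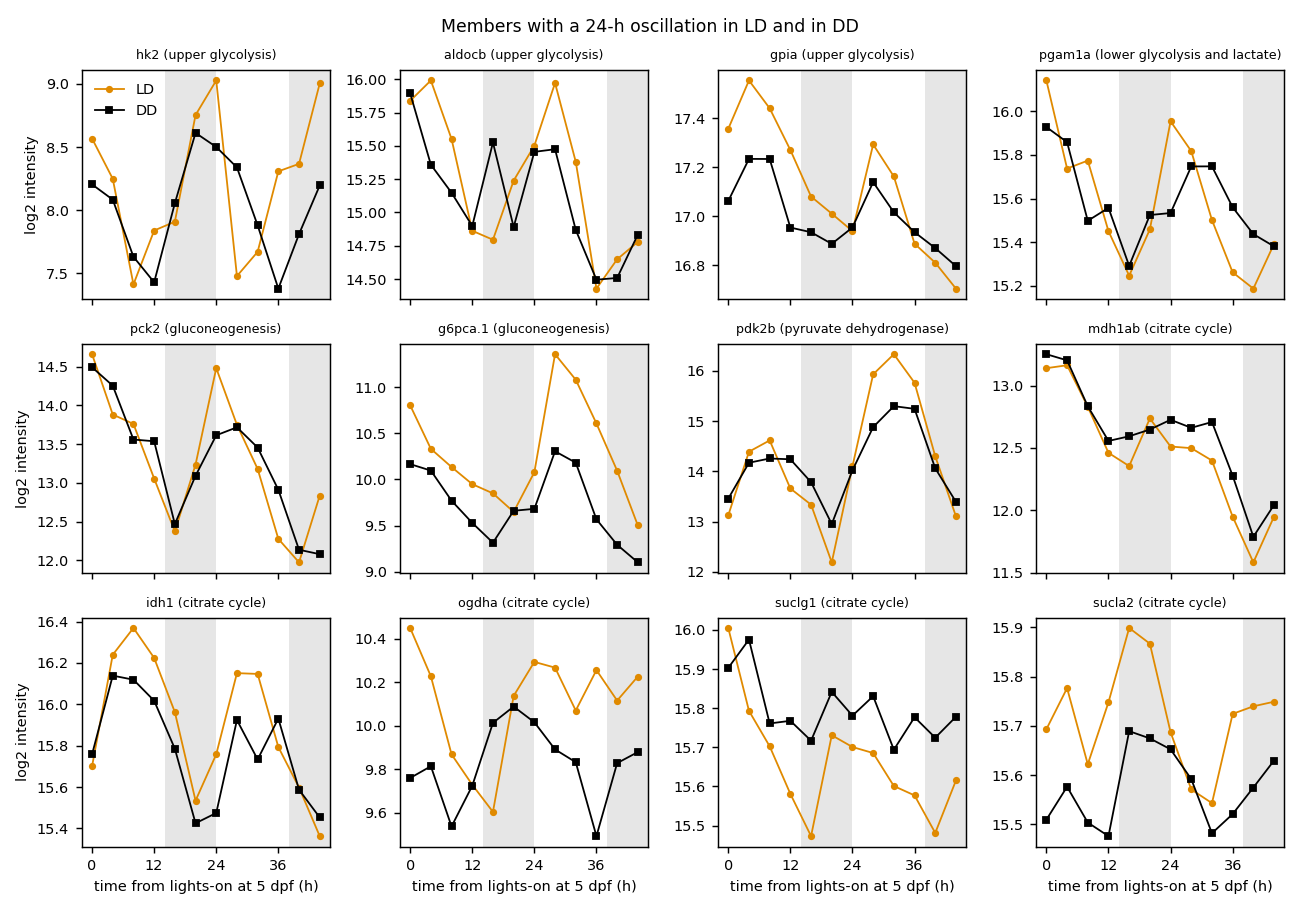
Log2 intensity (vertical axes) against time from lights-on at 5 dpf in hours (horizontal axes) for the 12 members oscillating in LD and DD, with 1 array per point. Orange circles are LD, black squares are DD, and grey bands mark the dark hours of the LD schedule. The hk2 course peaks at the end of the night and that of pdk2b around CT8 on both days.

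In upper glycolysis, hk2, which phosphorylates glucose in muscle and fat, was the member with a night peak. In LD it stood at 8.57, 8.25, 7.41, 7.84, 7.91 and 8.75 at the 6 time points of the first day and at 9.03, 7.48, 7.67, 8.31, 8.37 and 9.00 on the second. In DD it stood at 8.20, 8.08, 7.63, 7.43, 8.05 and 8.61, then at 8.50, 8.34, 7.88, 7.38, 7.81 and 8.20. The highest array of each day was at CT20 or CT0 in both conditions, and the lowest was between CT4 and CT12. Its fitted amplitude (the peak minus the mean) was 0.63 ± 0.14 (SE, n = 12 arrays) in LD and 0.48 ± 0.08 (SE, n = 12) in DD, a 2.38-fold and a 1.95-fold span from trough to peak. Its g test gave 0.0468 and 0.00663, and limma's F test gave adjusted p-values of 0.0419 in LD and 0.0253 in DD.

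The retina and brain aldolase aldocb, which splits fructose bisphosphate, ran from 14.43 to 15.99 with a median of 15.31 in LD and from 14.49 to 15.90 with a median of 15.02 in DD. It was highest near CT4 in LD, where the g test was 0.000799, but only 0.293 in DD, and its second probe gave 0.511 there and did not pass. The fit gave an amplitude of 0.69 ± 0.08 under LD and of 0.40 ± 0.14 under DD (SE, n = 12 each). Glucose-6-phosphate isomerase gpia moved less, from 16.70 to 17.55 (median 17.12) in LD and from 16.80 to 17.23 (median 16.95) in DD. Its peak was fitted at 5.59 ± 1.13 h in LD and 5.50 ± 0.73 h in DD (SE), with amplitudes of 0.27 ± 0.08 and 0.17 ± 0.03 and g tests of 0.189 and 0.0166.

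In lower glycolysis the phosphoglycerate mutase pgam1a passed in both conditions. It ran from 15.19 to 16.14 (median 15.48) in LD and from 15.29 to 15.93 (median 15.55) in DD, with the highest array at CT0 of the first day in each. The fit for pgam1a gave 0.37 ± 0.06 under LD and 0.20 ± 0.05 under DD as amplitudes (SE, n = 12 each). The enolases eno1a, eno1b and eno2 met the limit of 0.15 in LD and not in DD, although the second probes of eno1a (0.745) and eno2 (0.169) did not meet it in LD, nor did that of the malate dehydrogenase mdh2 (0.948 against 0.0519 on the read probe). The enolase eno1b ran from 13.21 to 14.79 in LD and from 13.75 to 14.66 in DD. Amplitudes of 0.58 ± 0.10 and 0.16 ± 0.11 were fitted in the 2 conditions (SE, n = 12 each). This was the member with the smallest p when the LD and DD waveforms were compared directly, with p = 0.030 by limma before adjustment.

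Gluconeogenesis held a pair of members with early-day peaks. The mitochondrial phosphoenolpyruvate carboxykinase pck2 went through 14.66, 13.88, 13.76, 13.06, 12.37 and 13.24 on the first day in LD and 14.48, 13.75, 13.18, 12.28, 11.97 and 12.84 on the second. In DD pck2 read 14.49, 14.26, 13.56, 13.54, 12.47 and 13.09, then 13.61, 13.72, 13.46, 12.91, 12.14 and 12.08. The highest array of each day was at CT0 in LD and at CT0 or CT4 in DD, and the lowest at CT16 or CT20. The span from trough to peak was 4.17-fold in LD and 3.27-fold in DD (amplitudes 1.03 ± 0.17 and 0.85 ± 0.20, SE), with g tests of 0.00588 and 0.0558. The glucose-6-phosphatase subunit g6pca.1, which releases free glucose, ran from 9.501 to 11.36 (median 10.12) in LD and from 9.10 to 10.31 (median 9.67) in DD. In LD its second-day peak at CT4 was 11.36 against 10.33 at the same hour of the first day, where the CT0 array was highest at 10.80. The amplitudes of g6pca.1 were 0.55 ± 0.18 and 0.47 ± 0.09 (SE, n = 12 each), with g tests of 0.281 and 0.0146.

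The widest LD swing among the 12 belonged to pdk2b, a kinase that inactivates pyruvate dehydrogenase. In LD it rose from 13.12 at CT0 to 14.39 and 14.62 and then fell through 13.66 and 13.34 to 12.19, and on the second day it ran 14.10, 15.93, 16.33, 15.76, 14.30 and 13.10. In DD pdk2b ran 13.46, 14.17, 14.26, 14.24, 13.78 and 12.95, then 14.02, 14.88, 15.30, 15.24, 14.06 and 13.39. The CT8 array was the highest of both days in LD and in DD, and CT20 the lowest of each. The fitted span was 6.51-fold in LD and 3.08-fold in DD (amplitudes 1.35 ± 0.35 and 0.81 ± 0.18, SE), and the second probe of pdk2b oscillated too, with amplitudes of 1.35 and 0.85. Limma's F test left it just outside 5%, at adjusted p-values of 0.0586 in LD and 0.0583 in DD. The subunits of the complex itself (pdha1a, pdhb and dlat) did not pass the g test rule.

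In the citrate cycle group, which also lists cytosolic enzymes, 5 members passed. Cytosolic malate dehydrogenase mdh1ab ran from 11.58 to 13.16 (median 12.48) in LD and from 11.79 to 13.25 (median 12.65) in DD, with amplitudes of 0.45 ± 0.15 and 0.42 ± 0.13 (SE, n = 12 each) on top of a fall over the 2 days. Its g tests of 0.352 in LD and 0.23 in DD met the limit of 0.5 and not that of 0.15. The cytosolic NADP-dependent isocitrate dehydrogenase idh1 ran from 15.36 to 16.37 (median 15.88) in LD and from 15.42 to 16.14 (median 15.77) in DD, highest from CT4 to CT12, although its second probe did not pass. Its amplitude was 0.39 ± 0.07 and 0.28 ± 0.07 (SE, n = 12 each). The oxoglutarate dehydrogenase subunit ogdha had amplitudes of 0.23 ± 0.08 and 0.17 ± 0.06 and g tests of 0.356 and 0.361. Its second probe stood outside the limit with g tests of 0.494 and 0.501. The succinyl-CoA ligase subunits had amplitudes of 0.16 ± 0.04 and 0.07 ± 0.03 for suclg1 and 0.11 ± 0.03 and 0.08 ± 0.02 for sucla2, and the second probe of sucla2 did not pass. Their g tests were 0.101 and 0.213 for suclg1 and 0.154 and 0.213 for sucla2. Calls of ogdha and suclg1 were lost under normexp background correction, that of ogdha also with scaling to the 75th percentile, and that of aldocb without the DD array at 24 h.

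By the mean of the LD and DD peak times, 9 of the 12 oscillating members peaked between 1.66 and 8.17 h after lights-on and 3 in the night. The mean of the LD and DD peak times was 1.66 h for suclg1, 2.31 h for aldocb, 3.25 h for pgam1a and for pck2, 3.37 h for mdh1ab, 5.16 h for g6pca.1, 5.55 h for gpia, 7.83 h for idh1 and 8.17 h for pdk2b. The remaining 3 had means in the night, sucla2 at 19.2 h, hk2 at 21.97 h and ogdha at 23.1 h. For ogdha the LD peak, fitted at 0.84 ± 1.35 h (SE), lay after lights-on. Only its DD peak, at 21.4 ± 1.32 h (SE), lay in the night. The circular mean was 2.42 h for glycolysis (4 members, mean vector 0.764 on a scale where 1 is perfect agreement), 4.21 h for gluconeogenesis (2 members, 0.969), 8.17 h for pdk2b alone and 1.39 h for the citrate cycle (5 members, 0.507). The citrate cycle group mixes the cytosolic idh1 and mdh1ab (7.83 and 3.37 h) with ogdha, sucla2 and suclg1 (23.1, 19.2 and 1.66 h). Its mean is therefore not one of the mitochondrial cycle alone. Over all 12 members the circular mean was 3.04 h with a mean vector of 0.616. The 4513 oscillating probes of the array had a mean vector of 0.0909 and fell into opposite clusters (mean vector 0.383 for the doubled phases), with 39.0% of them peaking from CT20 to CT4 and 46.7% from CT8 to CT20, where 2 of the 12 members did. No test was made of the phases, since few members oscillated.

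**Figure D2:**
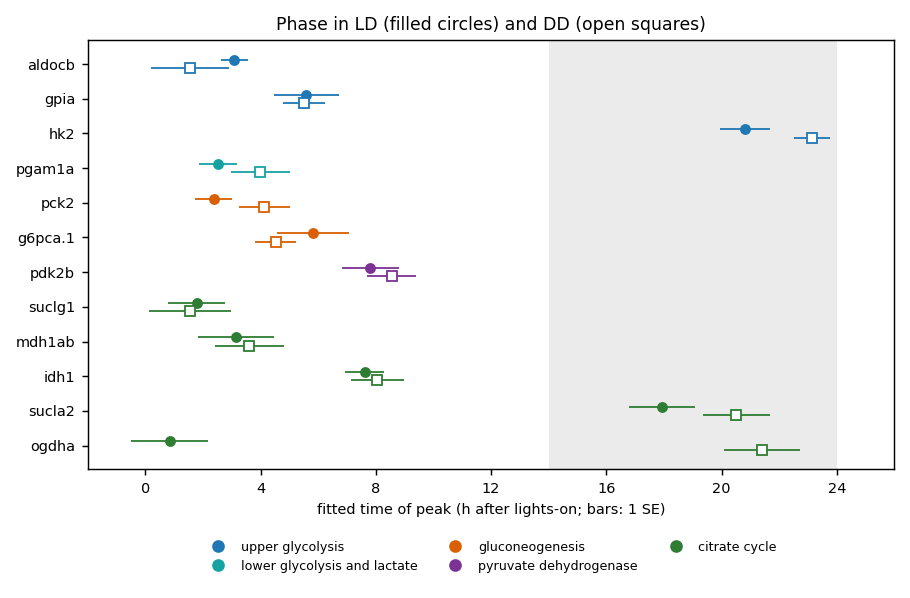
Fitted peak time (horizontal axis, hours after lights-on) of the 12 oscillating members, coloured by pathway step. Filled circles are LD, open squares are DD, bars are 1 SE of the fit, and the grey band is the dark part of the LD schedule. The points of 9 members lie between 0 and 9 h in both conditions, and those of hk2 and sucla2 lie in the night.

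The 12 members had been chosen for a rhythm in DD as well as in LD, so that its presence in DD is no finding. All 12 oscillating members had the smaller amplitude in DD, with ratios of DD over LD from 0.472 for suclg1 to 0.928 for mdh1ab, as did 78.3% of all oscillating probes. The peak in DD differed from that in LD by between 3.43 h earlier for ogdha, whose fits had SEs of 1.35 and 1.32 h, and 2.58 h later for sucla2. It was 2.35 h later for hk2 and 1.74 h later for pck2, and within 0.5 h for gpia, suclg1, idh1 and mdh1ab. None of these shapes was shown to differ between LD and DD. The waveform test passed for 0 of 48 members and 0% of all probes after adjustment by limma, while an unadjusted p below 0.05 was found in 1 member (eno1b) and in 3.36% of probes. The next smallest unadjusted p-values by limma were 0.0987 for hk2, 0.115 for aldocb and 0.132 for pgam1a.

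Mean levels over the 48 h differed between LD and DD for 15 members, 10 higher and 5 lower in LD. Among all probes 7.36% were higher and 9.88% lower. With slide as a random block 4 members higher and 2 lower were left by limma, the share of all probes not being counted. These were g6pca.1, dlat, tpi1b and sucla2 and, in the lower direction, pklr and gpib. The higher members were g6pca.1 and fbp2 in gluconeogenesis, pkma, gapdhs, eno1a and tpi1b in glycolysis, dlat of the pyruvate dehydrogenase complex, and ogdha, idh3a and sucla2 in the citrate cycle. The lower ones were pklr, gpib, aldoca, suclg1 and mdh1ab. The median difference was 0.053 for the members and 0.001 for all probes. With scaling to the 75th percentile it was 0.04 for the members and 0.04 for all probes.

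The liver and red-cell pyruvate kinase pklr was the member that differed the most. It ran from 15.78 to 17.63 (median 17.19) in LD and from 16.75 to 18.29 (median 17.85) in DD. The ranges overlap, but pklr was lower in LD at 12 of 12 time points, with a difference of -0.65 ± 0.05 (SE, 1.57-fold, adjusted p = 8.37e-06 by limma with the time point as a block). These 12 include 0 h, at lights-on, up to which both conditions had had the same light schedule. Glucose-6-phosphatase g6pca.1, acting in the opposite direction in the liver, was higher in LD at 11 of 12 time points, by 0.56 ± 0.09 (SE, 1.48-fold, adjusted p = 0.00114 by limma). Of the other gluconeogenesis members fbp2 was called higher. The differences of pck2 (0.01 ± 0.12), fbp1a (-0.01 ± 0.07) and fbp1b (0.03 ± 0.07) did not pass, at adjusted p-values of 0.959, 0.92 and 0.785 by limma. Nor did that of glucokinase gck (-0.19 ± 0.07, adjusted p = 0.0886). The summed level of 5 detected liver markers of 7 listed (1 higher in LD by limma) was 18.47 to 18.88 in LD and 18.63 to 18.99 in DD. That of the erythrocyte markers (3 of 5 detected, 1 lower in LD by limma) was 16.97 to 18.64 in LD and 17.41 to 18.51 in DD. The part of these cells in the differences was not tested.

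Isomerase gpib was lower in LD at 12 of 12 time points, running from 13.35 to 13.71 (median 13.49) in LD and from 13.71 to 14.24 (median 13.86) in DD, so that the conditions met at 13.71 without overlapping, as in 1 of 48 members (2.08%) and 0.336% of all probes. The difference was -0.41 ± 0.06 (SE, adjusted p = 0.000763 by limma). The 12 time points include 0 h, at lights-on, up to which both conditions had had the same light schedule. At that time gpib already read 13.39 in LD and 13.79 in DD. For its duplicate gpia the difference was 0.12 ± 0.05 (SE, adjusted p = 0.103). Triose-phosphate isomerase tpi1b was higher in LD at 12 of 12 time points by 0.23 ± 0.06 (adjusted p = 0.0128 by limma), and its duplicate tpi1a gave -0.02 ± 0.04. Neither pair of duplicates was tested for a difference between its copies. The muscle-type pyruvate kinase pkma was 0.32 ± 0.10 higher (adjusted p = 0.0378), ogdha 0.28 ± 0.09 (adjusted p = 0.0382), the acetyltransferase dlat 0.28 ± 0.07 (adjusted p = 0.019) while aldoca gave -0.21 ± 0.06 (adjusted p = 0.0417), all by limma. With the random slide block the adjusted p-values by limma were 0.0645 for pkma, 0.0761 for ogdha, 0.0429 for dlat, 0.0854 for aldoca, 0.0297 for tpi1b, 0.00211 for gpib, 0.00347 for g6pca.1 and 4e-05 for pklr. Of the members called the calls of ogdha, eno1a, gapdhs and idh3a rested on the read probe, the second probe not passing. For pdk2b and mdh2 only the second probe passed, at 0.47 ± 0.13 (adjusted p = 0.0229) and -0.13 ± 0.04 (adjusted p = 0.0281) by limma. Their read probes gave 0.09 ± 0.16 (adjusted p = 0.744) and -0.16 ± 0.05 (adjusted p = 0.0638).

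**Figure D3:**
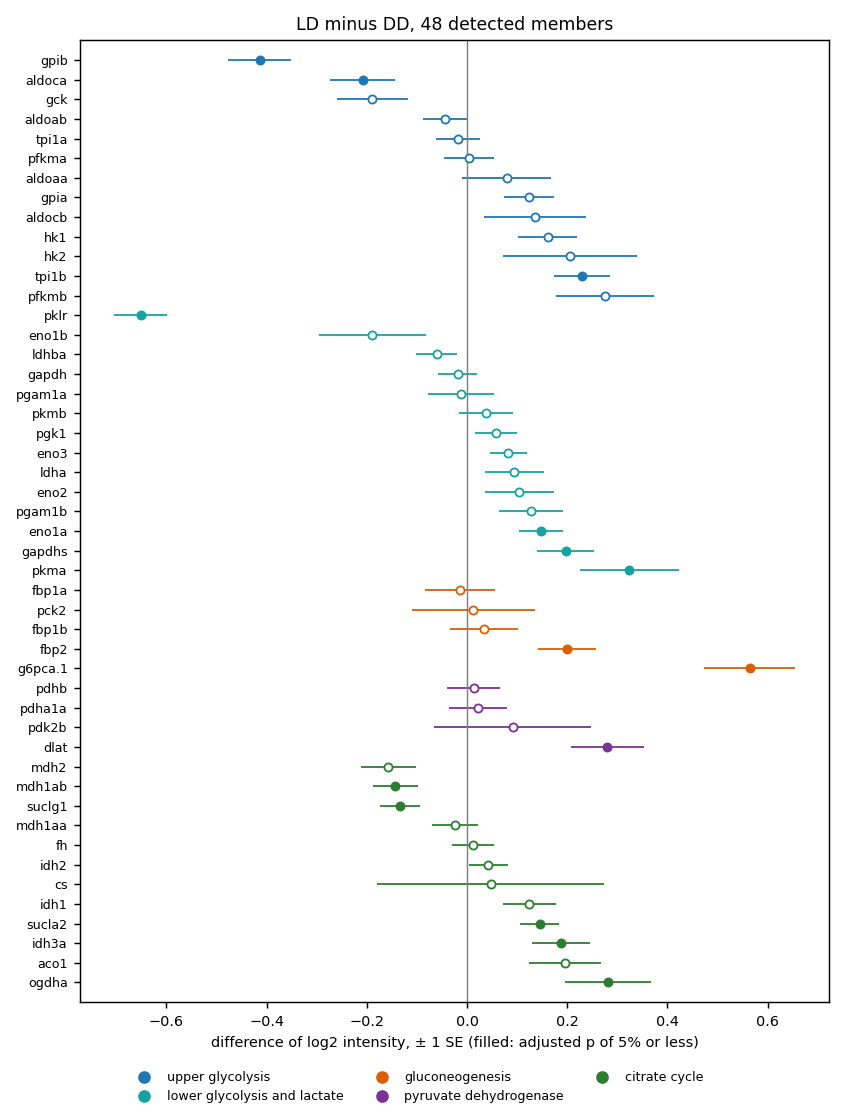
Mean log2 intensity in LD minus that in DD for the 48 detected members (horizontal axis), grouped by pathway step, with bars of 1 SE over 12 time points of 1 LD and 1 DD array each (11 for hk1 and 10 for gck). Filled points passed an adjusted p of 5% by limma. The member farthest to the left is pklr at -0.65 and the one farthest to the right is g6pca.1 at 0.56.

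Most of these differences were near the limit. Leaving out single time points, an alternative chosen after seeing the data, left 5 to 8 members higher and 2 to 5 lower, with no share of all probes counted. The higher count went to 5 without 8, 32 or 44 h and to 6 without 0, 12, 20, 24 or 40 h, and the lower count to 2 without 12, 28, 36 or 40 h and to 3 without 4, 16, 20, 24 or 44 h. Both pklr and g6pca.1 kept their calls in each of these. Scaling to the 75th percentile turned the split of all called probes from 42.7% to 56.4% higher, with 10 members higher and 6 lower. LD and DD shared no slide, so that condition and slide cannot be told apart.

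The step from the first to the second 24 h was the broadest change in the set. Of 48 members 26 fell and 7 rose, where 20.6% of all probes fell and 23.5% rose. The median change was -0.172 for the members and 0.026 for all probes. With scaling to the 75th percentile it was -0.111 for the members and -0.019 for all probes. That scaling called 10 members higher and 22 lower by limma, and 7297 probes higher and 8222 lower of 35412. In glycolysis 17 of 27 members fell (9 of 13 in the upper part and 8 of 14 in the lower), with a median of -0.231. In the citrate cycle group 4 of 12 fell, the cytosolic idh1 and mdh1ab among them, and 2 rose. Of the pyruvate dehydrogenase group 3 of 4 fell and pdk2b rose, and in gluconeogenesis 2 fell and 2 rose. The calls of idh1, eno1a and fh rested on the read probe, the second probe giving adjusted p-values of 0.104, 0.162 and 0.0972 by limma. For ogdha only the second probe passed, with a rise of 0.34 ± 0.09 (SE, adjusted p = 0.00757 by limma).

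Muscle-type phosphofructokinase pfkmb, the committing step of glycolysis, ran from 7.57 to 9.02 (median 8.43) on the 12 first-day arrays and from 6.64 to 8.03 (median 7.42) on the second day. It was lower at 12 of 12 matched times and fell by 0.96 ± 0.10 (SE, 1.94-fold, adjusted p = 7.02e-06 by limma), and its second probe fell by 1.18. Its duplicate pfkma fell by 0.41 ± 0.07 (adjusted p = 0.000246). Lactate dehydrogenase ldha, which turns pyruvate into lactate, ran from 15.11 to 16.29 (median 15.82) and then from 14.62 to 15.60 (median 15.18). It too was lower at 12 of 12 times, by 0.64 ± 0.07 (SE, adjusted p = 7.69e-06), while its sister ldhba, the heart-type subunit, moved by 0.04 ± 0.04 (adjusted p = 0.413). Aldolase aldoaa ran from 13.56 to 14.54 (median 14.10) and then from 13.12 to 13.99 (median 13.47), lower at 11 of 12 times, and fell by 0.60 ± 0.10 (adjusted p = 0.000394). The other glycolytic members that fell, among them hk1, gapdhs, pgam1b, pkma and pkmb, did so by between 0.16 for tpi1a and 0.51 for pkma.

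The glycolysis members that rose were pklr and gck, both known from the liver. Pyruvate kinase pklr ran from 15.78 to 18.01 (median 17.16) and then from 17.13 to 18.29 (median 17.73). It was higher on the second day at 12 of 12 times, by 0.59 ± 0.10 (SE, adjusted p = 0.000408). Glucokinase gck, the hexokinase of liver and pancreas, rose by 0.43 ± 0.14 (adjusted p = 0.0257) over 10 pairs, 2 DD values being left out as outlier spots, but was at 0.0337 ± 0.14 (adjusted p = 0.956 by limma) with slide as a fixed block. The liver-type fructose-bisphosphatases rose too. The gene fbp1a ran from 13.32 to 13.92 (median 13.71) on the first day and from 13.88 to 14.78 (median 14.53) on the second, and rose by 0.73 ± 0.05 (SE, 1.66-fold, adjusted p = 7.89e-07). Its duplicate fbp1b rose by 0.30 ± 0.06 (adjusted p = 0.00175), but was at 0.0698 ± 0.196 (adjusted p = 0.927 by limma) with the fixed slide block. Muscle-type fbp2 went the other way at 12 of 12 times, from a range of 14.24 to 15.30 (median 14.89) to one of 14.06 to 14.52 (median 14.23), and fell by 0.60 ± 0.07 (SE, adjusted p = 2.7e-05). So did pck2, lower at 12 of 12 times by 0.50 ± 0.08 (SE, adjusted p = 0.00032 by limma). With the fixed slide block pck2 was at -0.446 ± 0.279 (adjusted p = 0.551 by limma). The change of g6pca.1 (0.13 ± 0.15, adjusted p = 0.499 by limma) did not pass.

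Kinase pdk2b was higher on the second day at 12 of 12 times, with ranges of 12.19 to 14.62 (median 13.72) and 13.10 to 16.33 (median 14.59), a rise of 1.02 ± 0.14 (SE, 2.03-fold, adjusted p = 8.01e-05 by limma). The complex it inhibits moved the other way, by -0.33 ± 0.09 for dlat (adjusted p = 0.0083), -0.21 ± 0.05 for pdhb (adjusted p = 0.00543) and -0.15 ± 0.05 for pdha1a (adjusted p = 0.0266). In the citrate cycle mdh1ab ran from 12.35 to 13.25 (median 12.78) and then from 11.58 to 12.73 (median 12.34), and fell by 0.56 ± 0.06 (adjusted p = 1.28e-05), whereas its duplicate mdh1aa rose by 0.11 ± 0.04 (adjusted p = 0.0397).

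**Figure D4:**
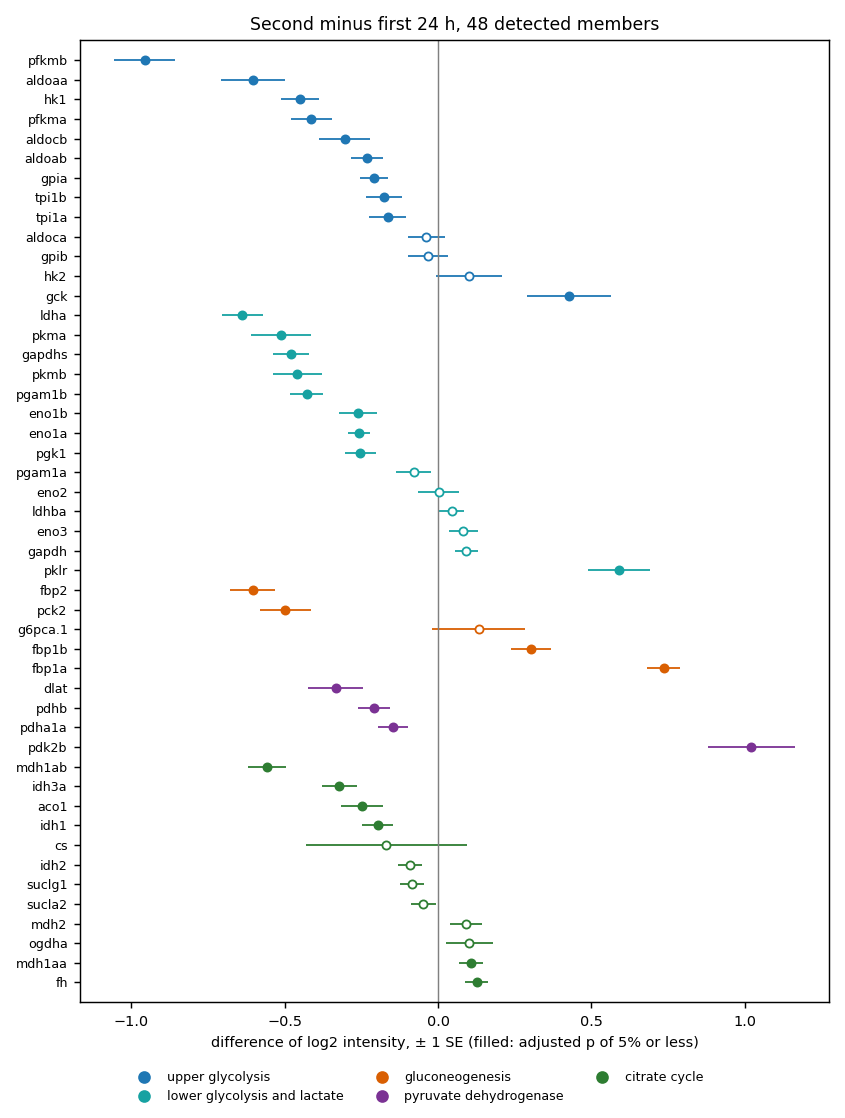
Second minus first 24 h in log2 intensity (horizontal axis) for the 48 detected members, grouped by pathway step, with bars of 1 SE over 12 pairs of arrays at the same hour and condition (11 for hk1 and 10 for gck). Filled points passed an adjusted p of 5% by limma. Most glycolysis members lie left of 0, while gck, pklr, fbp1a, fbp1b and pdk2b lie to the right.

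The change over 2 days was not shown to depend on light. It was called in 22 members lower and 4 higher with the LD arrays alone, where 14.9% and 15.9% of probes passed, and in 13 lower and 4 higher with the DD arrays alone, where 10.6% and 10.1% did. The difference between the LD and DD changes passed for 0 of 48 members and 0.0169% of probes by limma. An unadjusted p below 0.05 was found in 3 members (6.25%) and in 9.93% of probes. Kinase pdk2b rose by 1.37 in LD and by 0.67 in DD, a difference of 0.70 ± 0.22 (SE, p = 0.0082, adjusted p = 0.438). Isomerase gpia fell by 0.32 in LD, while its DD change was -0.10 with an adjusted p of 0.312 (difference -0.22 ± 0.07, adjusted p = 0.445). For dlat the changes were -0.52 and -0.14 (adjusted p of the difference 0.464), and for cs, the synthase that opens the citrate cycle, -0.57 and 0.24 (adjusted p 0.592). The values of cs rest on single low arrays, for the LD change was -0.18 without the pair that holds the 28 h array and the DD change -0.0937 without the pair that holds the 0 h array, alternatives chosen after seeing the data.

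Each slide held 4 successive time points of 1 condition, so that in a condition only the middle slide held arrays of both days. With slide as a fixed block, in which 0.401% of probes were called, mdh1ab was the only member left, at -0.995 ± 0.108 (SE, adjusted p = 0.0149 by limma), and 42 of 48 members kept the sign of their change. The value of pdk2b went from 1.02 to 0.13 ± 0.18 and that of fbp2 from -0.60 to -0.27 ± 0.13, while ldha was at -0.81 ± 0.15 and fbp1a at 0.77 ± 0.17. Markers of other cells moved too. The summed level of the erythrocyte markers (3 of 5 detected, 3 of them lower) was 17.69 to 18.64 on the first day and 16.97 to 18.04 on the second. The intestine markers (3 of 3 detected, 3 lower) summed to 18.90 to 19.61 and then 18.43 to 19.35, those of photoreceptors (5 of 7 detected, 3 lower) to 18.51 to 19.09 and then 17.83 to 18.88, and those of the exocrine pancreas (4 of 5 detected, 3 higher) to 19.76 to 20.35 and then 20.26 to 20.48. That of the liver markers (5 of 7 detected, 2 higher and 2 lower) was 18.47 to 18.79 and 18.68 to 18.99, and that of fast muscle (11 of 11 detected, 1 higher and 3 lower) was 22.18 to 22.28 and 22.12 to 22.22. Their part in the changes of the enzymes was not tested.

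Genes next to these pathways were detected in 55 of 74 listed cases. Of the 55, 14 oscillated in both conditions, where 12.7% of all probes did. By limma 9 were higher and 5 lower in LD, where 7.36% and 9.88% of probes were. From the first to the second day 25 fell and 11 rose, where 20.6% and 23.5% of probes did. With slide as a fixed block 0 of the 55 were called between the days by limma, where 0.401% of probes were. Of 5 detected pentose phosphate genes, which branch off glycolysis, 4 oscillated (pgd, tktb, taldo1 and rpia), with a mean phase of 3.22 h and a mean vector of 0.998, and 5 of 5 fell on the second day, by 0.21 for rpia to 0.48 for pgls. A further glucose-6-phosphatase, g6pca.2, had amplitudes of 1.36 in LD and 0.80 in DD with a phase of 4.19 h, and the glucose transporter slc2a1a had 0.87 and 0.65 with a phase of 3.20 h. The lactate dehydrogenase ldhbb was in the opposite part of the day, with amplitudes of 0.85 and 0.74 and a phase of 16.6 h. Of the succinate dehydrogenase subunits, sdha and sdhb were higher in LD, by 0.59 ± 0.08 and 0.33 ± 0.07 (SE, adjusted p = 0.000266 and 0.00758 by limma).

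At 48 and 50 hpf no enzyme separated the mitfa morphants from the other larvae at an adjusted p of 5%. The count was 0 of 47 members by limma, while limma called 0.757% of probes higher and 0.443% lower in the morphants, and an unadjusted p below 0.05 was found in 11 members (23.4%) and in 22.5% of probes. The mRNA of mitfa itself read 11.95, 11.57 and 11.45 on the morphant arrays and 7.83 to 8.47 on the others, 3.48 ± 0.21 higher (SE, adjusted p = 0.00128). A morpholino at the start codon acts on translation, so that this level does not check the labels. Under normexp background correction pgk1, pgam1b, eno2 and eno3 passed. That setting called 938 probes higher and 794 lower of 30508, against 231 and 135 in the main fit. Glucokinase gck passed when only probes detected on all arrays were kept (adjusted p = 0.0464 by limma). The pigment cell markers (7 of 8 detected) include mitfa itself, the 1 called higher in the morphants by limma, while 2 were called lower (tyrp1b and pmela). Their summed level, mitfa included, was lower in mitfa_MO, at 13.93 to 14.11, than in control_MO, at 14.40 to 14.54, and in WT, at 14.72 to 14.79.

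In 13 of 47 members (27.7%) the morphant arrays and the other 4 did not overlap, as in 22.9% of all probes. Among them were the 4 enzymes with the smallest p-values, which are given as values. Glucokinase gck read 4.43 at 48 hpf and 4.04 and 4.17 at 50 hpf in mitfa_MO, 5.21 and 4.81 in control_MO and 5.57 and 5.13 in WT, a difference of -0.97 ± 0.19 (SE, n = 3 and 4, adjusted p = 0.0532 by limma). It was the faintest of the 4, though well above background on all 7 arrays, and did not pass under normexp background correction. Mutase pgam1b read 10.01, 9.72 and 9.74 in mitfa_MO, 10.35 and 10.35 in control_MO and 10.37 and 10.67 in WT, a difference of -0.61 ± 0.14 (SE, adjusted p = 0.0616 by limma). Neuronal enolase eno2 read 11.06, 10.73 and 11.08 in mitfa_MO, 11.46 and 11.86 in control_MO and 11.43 and 11.86 in WT, a difference of -0.69 ± 0.17 (SE, adjusted p = 0.0689 by limma). Muscle enolase eno3 read 17.22, 17.20 and 17.19 in mitfa_MO against 16.84 and 16.72 in control_MO and 16.90 and 16.85 in WT, a difference of 0.38 ± 0.10 (SE, adjusted p = 0.0883 by limma).

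**Figure D5:**
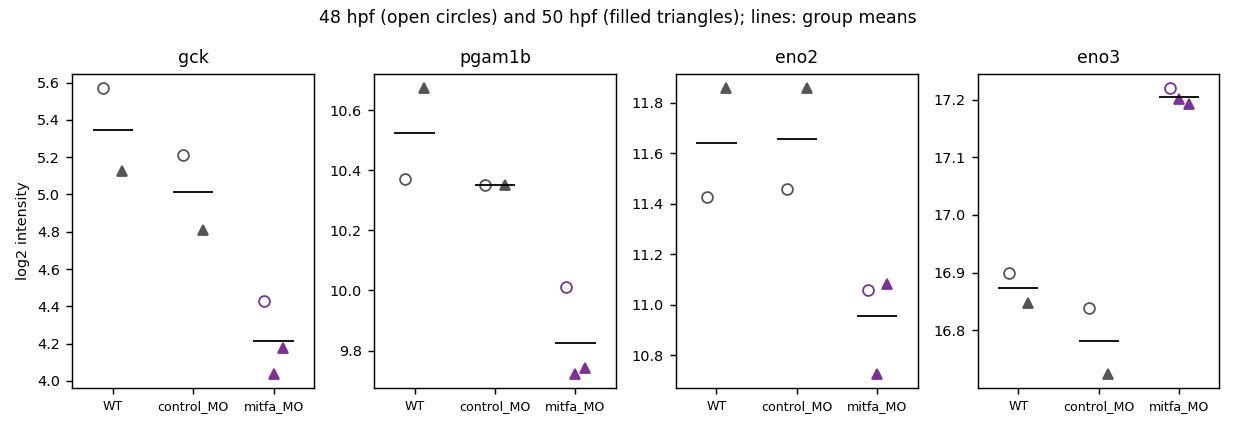
Log2 intensity (vertical axes) of the 4 members with the smallest p-values between mitfa morphants (purple) and the other larvae (grey), by group. Open circles are 48 hpf, filled triangles are 50 hpf, and lines are group means. The 3 morphant arrays lie below the other 4 for gck, pgam1b and eno2 and above them for eno3, at adjusted p-values of 0.0532 to 0.0883.

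All 48 hpf arrays shared 1 slide and all 50 hpf arrays another, each with all 3 groups. Within the 48 hpf slide the morphant differed from the others by -0.96 for gck, -0.35 for pgam1b, -0.38 for eno2 and 0.35 for eno3. Within the 50 hpf slide the differences were -0.86, -0.78, -0.95 and 0.41, and with age as a block the adjusted p-values by limma were 0.0675, 0.0802, 0.0756 and 0.0984. The summed level of neuron markers (4 of 6 detected) was 13.31 to 13.86 in mitfa_MO, 14.11 to 14.40 in control_MO and 14.23 to 14.56 in WT, and its part in the value of eno2 was not tested.

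Control morphants and WT larvae did not differ in any member at an adjusted p of 5% (0 of 47 by limma, as 0% of probes). An unadjusted p below 0.05 was found in 7 members (14.9%) and in 16% of probes. The smallest p belonged to pdk2b, at 6.62 and 6.92 in control_MO and 7.74 and 7.89 in WT, a difference of -1.05 ± 0.22 (SE, n = 2 and 2, adjusted p = 0.21). It was followed by ldha at -0.52 ± 0.14, pkmb at -0.58 ± 0.17 and idh1 at -0.39 ± 0.14, with adjusted p-values of 0.231 to 0.275 by limma. Between 50 and 48 hpf 0 of 47 members passed, while 0.0983% of probes did by limma. An unadjusted p below 0.05 was found in 3 members (6.38%) and in 13.1% of probes. The 3 members were gck at -0.38 ± 0.10, eno1b at 0.52 ± 0.20 and g6pca.1 at 0.56 ± 0.22, with adjusted p-values of 0.206, 0.358 and 0.375 by limma.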

How the data were processed

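The 31 arrays measured whole-larva RNA with 1 dye on 43603 probes. The authors' scanner files hold spot intensities from which Feature Extraction (10.7.3.1 per the file headers, 10.5.1 in the submitters' processing notes) had subtracted background. The authors also deposited log2 values that they had quantile normalized. Samples were grouped by the condition, time, age and treatment in their labels.

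Log2 was taken of the processed signal without outlier spots, replicate spots were combined by their mean, and quantile normalization was done within the time course and within the 48 and 50 hpf arrays. These values correlated with the deposited log2 values at 0.999919 or more. Detection meant a signal well above background in 75% or more of a set's arrays, and a gene was read from its brightest detected probe. By unversioned accession 16795 probes matched 11612 genes and 26808 were not matched. Duplicated genes were not checked for cross-hybridization. For 18 members with 2 detected probes, calls were the same in 14 for oscillation, 12 for LD against DD and 14 for the days, with no opposite calls, and correlations between probes ran from -0.0805 to 0.95.

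Fisher's g test covered periods of 48, 24, 16, 12 and 9.6 h, gaps being filled from neighbouring times, and a cosine of 24 h gave each phase and amplitude. Differences were fitted by limma across all detected probes of a set, with Benjamini-Hochberg adjustment at 5%, with time point as a block for LD against DD, hour of the day within condition for the days, and group and age for control_MO against WT and 50 against 48 hpf. Named with values are, per pathway step, up to 4 oscillating members with the largest amplitudes, per other comparison up to 8 members past 5% with the largest differences or else 4 with the smallest p, and members whose probes disagree. Others were named after their values were seen. The members, lists and rules were chosen with earlier results of these data known. Alternatives covered scaling, background correction, detection, rhythm test, slide blocks, controls and left-out arrays. The code was tested on simulated data. The number of arrays limits the precision. Tools were Python 3.11.15, R 4.3.3 and limma 3.58.1.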

Additional observations from a re-analysis of the deposited data

Results flagged for a closer look

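Among the 4 enzymes with the smallest p-values between mitfa morphants and the other larvae, 1 array stood apart in the comparison group. For pgam1b the WT array at 50 hpf read 10.67, while the control_MO arrays read 10.35 and 10.35 and the other WT array 10.37. The gap divided by the range of these 4 arrays was 0.932, above Dixon's critical value for 4 arrays, which chance passes in about 1 of 20 groups. Without that array the difference of pgam1b was -0.53 ± 0.13 (SE, adjusted p = 0.109 by limma). The count of members that moved one way between the days at all times in LD and the opposite way at all times in DD was 0 of 48.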

How the results depend on the processing

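No count changed direction, but of the called members eno1b went from -0.26 on the second day to 0.0883 ± 0.143 (adjusted p = 0.857 by limma) with slide as a fixed block. The oscillation counts (12 in both, 11 in LD, 7 in DD) were 1, 6 and 2 with limma's F test and 17 in LD with a straight line removed. Without the first 24 h they were 20 in both and 12 in DD, but the shorter course leaves the g test only periods of 24 and 12 h. These 2 counts therefore cannot be set beside those of the full course. The share of all probes was not counted without the first 24 h or with the line removed. Of LD against DD (10 higher, 5 lower), 4 and 2 were left with slide as a random block, 4 and 3 with cosine and sine in place of the time-point block, 1 and 1 without the first 24 h and 3 and 2 without the second, 6 and 3 without the DD array at 24 h, and 3 lower with no detection filter. Leaving out single time points gave 5 to 8 higher and 2 to 5 lower. These last, the DD array at 24 h and the pairs left out for cs were chosen after seeing the data. For none of these alternatives of LD against DD was the share of all probes counted. For the second against the first day (7 higher, 26 lower), 4 were higher with slide as a random block, 0 higher and 1 lower with slide as a fixed block, 4 higher with LD arrays alone, and 4 higher and 13 lower with DD arrays alone. Leaving out single pairs of arrays gave 5 to 8 higher and 24 to 26 lower. The share of all probes was not counted for the random block or for the left-out pairs. Between mitfa_MO and the others (0 and 0), normexp background correction gave 2 higher and 2 lower, where it called 938 probes higher and 794 lower of 30508. Detection on all arrays gave 1 lower, the share of all probes not being counted. The mean phase of gluconeogenesis was 2.89 h without the second 24 h. The cause was not tested in any of these. LD and DD arrays were paired by time point and the days by hour in the fits themselves. A further pairing by replicate number was not possible, because the labels give no such numbers shared across groups.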

Other observations

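Citrate synthase cs, which joins acetyl-CoA to oxaloacetate, lay far below its usual level on single arrays. It read 14.01 on the LD array at 28 h, 15.61 on the LD array at 32 h and 14.52 on the DD array at 0 h, whereas the other 21 time-course arrays ran from 16.02 to 16.59. The second probe of cs, on the same arrays, read 6.38, 6.81 and 6.37 against 6.90 to 7.55 on the others. On the LD array at 28 h cs was the only member more than 1 below its LD median. On the DD array at 0 h there were 2 such members, cs and pklr (16.75 against a DD median of 17.85). Of all detected probes, 172 of 35412 detected probes lay more than 1 below their medians on both the LD array at 28 h and the DD array at 0 h.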
